A study of Mus musculus with 4 samples.

Results

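Interferon-induced genes and immunoproteasome subunits were followed in NIT-1 cells, an insulinoma-derived β cell line of the NOD/Lt mouse strain, after transfection of ERRγ. The 10 genes were Irf1, Ifit2, Rsad2, Cmpk2, Mx1, Mx2, Gbp2, Oasl2, Psmb8 and Psmb10, chosen by name with earlier results of these data known. Every row of the deposited tables whose mouse Ensembl gene ID carries one of these symbols was taken. This gave 14 rows out of 406 named rows, and 10 genes out of 373. The control group had received the EGFP plasmid pRP[Exp]-CMVE>EGFP and the other group the ERRγ plasmid, labelled pRP[Exp]-EGFP >ERR[gamma], each as 8.3 µg of DNA with 16 µL of a liposomal reagent at passages 20 to 25. Both groups had thus gone through transfection with plasmid DNA, and no untransfected cells were analysed here. There were 2 libraries per group, called biological replicates in the labels without saying what separated them, so p-values measure the spread between these libraries.

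Interferons are secreted proteins that signal through cell surface receptors, kinases and transcription factors, and that switch on a shared set of defence genes. Type I interferons act mainly through the interferon-stimulated response element (ISRE), and interferon γ through the gamma-activated site (GAS). In β cells this programme raises antiviral proteins and the antigen presentation machinery, and it is well known from autoimmune diabetes, which NOD mice develop. The immunoproteasome is the interferon-inducible form of the proteasome, in which replacement catalytic subunits change the peptides made for presentation on MHC class I.

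The libraries held 16605943 to 18769899 reads, as recovered from the tables, and the 14 rows took 1.68%, 1.67%, 1.43% and 1.40% of these in control replicates 1 and 2 and ERRγ replicates 1 and 2. Rows stand for single annotated transcripts: 13 of the 14 had the length of exactly 1 GENCODE M21 transcript of their gene, and the Psmb8 row, 815 nucleotides long, had none. Each row gives all reads assigned to it, the part of them that was placed uniquely, and an RPKM value, which scales the reads by the length of the row and by the reads of the library. Of the transfected gene, Esrrg-201 stood at 0.232 and 0 RPKM in the controls against 141 and 78.6 RPKM in ERRγ, and Esrrg-203 at 0 and 0.355 against 8.42 and 40.7 RPKM. None of 24 β cell marker genes, such as Ins1 and Ins2, had a row among those analysed here, so the cell type label could not be checked. Of 9 fibroblast markers 1 had a row, Thy1-204, at 0 and 0 RPKM in control and 2.97 and 3.08 RPKM in ERRγ, and its part in the results was not tested. The lists for lymphocytes, macrophages and dendritic cells, endothelium and other pancreatic cells had none. In bulk RNA, fewer cells of a kind and less RNA per cell cannot be told apart.

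Across the 14 rows, both ERRγ libraries lay below both controls in 12 rows and above both in 2. The 12 lower rows were between 1.11-fold (Mx2-202) and 4.37-fold (Psmb10-202) lower in ERRγ. The Psmb10-202 ratio of 0.229 was 0.390 without control replicate 1 and 0.162 without control replicate 2 or without ERRγ replicate 1. Over all named rows, the same was seen for 45.6% (below) and 41.9% (above), and 51 of the 406 overlapped. The tables hold a selection of rows by a rule that is not stated, in which few rows overlap between the groups, so little can be read from these counts. With the rows of a gene added, 9 of the 10 genes lay below both controls and Psmb10 overlapped them, beside 43.7% of all 373 genes below. The median ratio of ERRγ to control RPKM was 0.695 over the 14 rows and 0.733 over the 10 genes, against 0.748 over all named rows. After TMM scaling of the RPKM values, 9 of the 14 rows lay below, 2 above and 3 overlapped (41.9% below and 43.1% above over all rows), and of the 10 genes 6 lay below, 1 above and 3 overlapped (39.9% and 43.4% over all genes). In unique reads scaled to the library, 8 of the 12 rows that had any lay below both controls and 0 above (39.5% and 23.6% over 314 rows), and 7 of 9 genes lay below and 0 above (40.7% and 24.6% over 297 genes).

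**Figure D1:**
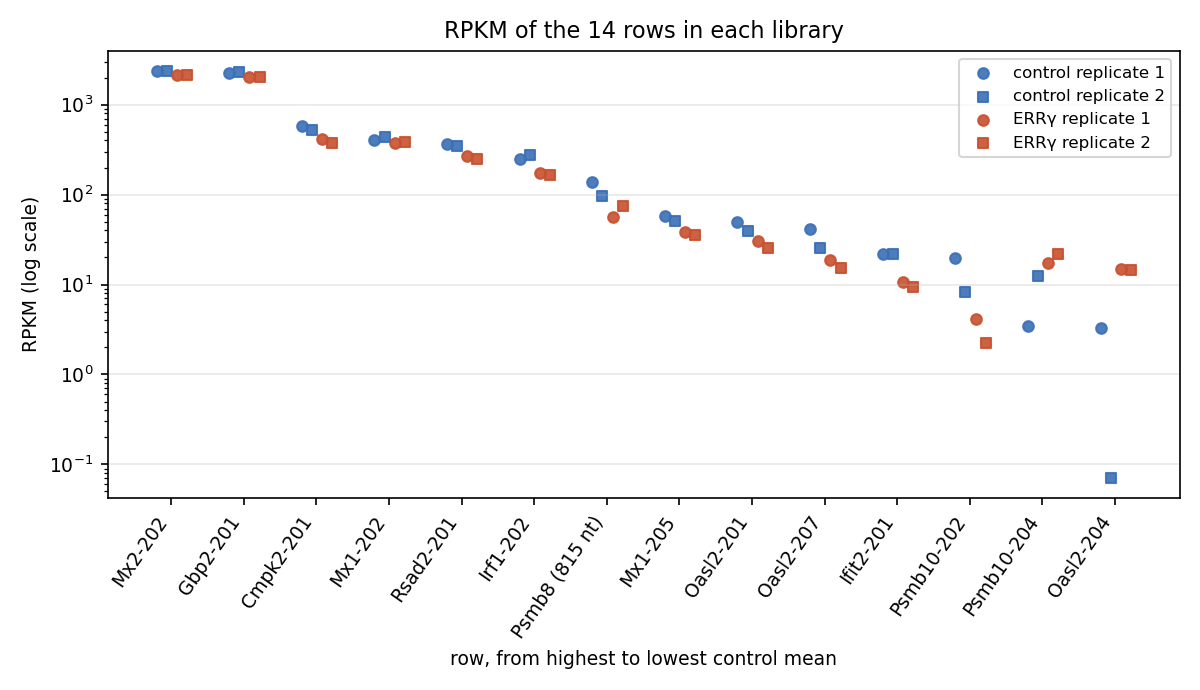
RPKM on a log axis for the 14 rows of the 10 genes, ordered by mean control level, with 1 point per library (blue control, red ERRγ; circles replicate 1, squares replicate 2). Mx2-202 and Gbp2-201 sit above 2000 RPKM in every library, and only Psmb10-204 and Oasl2-204 have both red points above both blue ones.

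The genes, each taken as the sum of its listed rows, spanned a wide range of abundance. Mx2 (2351 ± 16.3 RPKM, SD, n = 2) and Gbp2 (2271 ± 52.8 RPKM) ranked 2 and 3 among all 373 genes in control and were followed by Cmpk2 (548 ± 38.4 RPKM), Mx1 (479 ± 15.6 RPKM) and Rsad2 (358 ± 14.9 RPKM). Irf1 came next (263 ± 22.4 RPKM), then Psmb8 (117 ± 28.5 RPKM) and Oasl2 (80.1 ± 21.0 RPKM), with Psmb8 in control replicate 2 only just above Oasl2 in control replicate 1. Psmb10 (21.9 ± 1.70 RPKM) and Ifit2 (21.9 ± 0.213 RPKM) shared the last place. In ERRγ the order was nearly the same, with Mx1 (413 ± 5.15 RPKM) and Cmpk2 (396 ± 27.1 RPKM) overlapping, Psmb8 (66.0 ± 13.1 RPKM) and Oasl2 (59.5 ± 6.11 RPKM) overlapping, and Ifit2 alone at the bottom (9.94 ± 0.953 RPKM). Mx2 and Gbp2 made up 70.4% and 71.6% of the summed RPKM of the 10 genes in control replicates 1 and 2, and 74.5% and 75.1% in ERRγ replicates 1 and 2. The other 8 genes together went from 1937 and 1843 RPKM in control to 1423 and 1368 RPKM in ERRγ.

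Irf1 encodes a transcription factor that is itself induced by interferon γ through a GAS element and that activates many of the other genes. It lies on chromosome 11 from 53770014 to 53778374, plus strand (GRCm38). The 250 bases before its RefSeq start (chr11:53769764-53770013, plus strand, GRCm38.p6, from RefSeq), which is also the start of Irf1-202, are shown because they hold the letters of a GAS, in capitals, 90 bases before the start.
Irf1 promoter: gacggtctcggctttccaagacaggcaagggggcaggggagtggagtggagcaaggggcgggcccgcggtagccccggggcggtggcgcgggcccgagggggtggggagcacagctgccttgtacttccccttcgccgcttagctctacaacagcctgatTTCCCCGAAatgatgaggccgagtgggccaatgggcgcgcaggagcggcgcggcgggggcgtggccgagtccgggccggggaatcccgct
The 9922 and 10073 reads of Irf1-202 in control gave 247 and 279 RPKM, and the 6221 and 6159 reads in ERRγ gave 175 and 165 RPKM. Both ERRγ libraries were thus well below both controls, and the ratio of means was 0.647. Irf1-202 fell in the all-read test, which compared all reads with the recovered library sizes (log2 fold change −0.63 ± 0.09, SE, edgeR, adjusted p = 0.0454). Unique reads numbered 0 and 3 in control and 0 and 2 in ERRγ, too few for a unique-read test. Of all stretches of 151 bases, the read length, along Irf1-202, 98.3% occur in other Irf1 transcripts, which had no row. Whether reads were assigned differently among the Irf1 transcripts was not tested. The all-read log2 fold change was −0.71 without control replicate 1 and −0.54 without control replicate 2. It was −0.67 without ERRγ replicate 1 and −0.59 without ERRγ replicate 2. The call was lost in each of these fits, as nearly all all-read calls were, so that loss says little about this row. The call was also lost with TMM, at a log2 fold change of −0.47 (edgeR, adjusted p = 0.0596). TMM is a scaling that takes most rows as unaltered, and whether that holds for this selection of rows was not tested.

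Ifit2 belongs to the IFIT proteins, which bind viral and other RNA and hold back translation. The gene lies on chromosome 19 from 34550694 to 34576419, plus strand. Ifit2-201 stood at 22.02 and 21.72 RPKM in control and at 10.61 and 9.27 RPKM in ERRγ, and 98.8% of its reads were unique. The controls were close to each other and more than double either ERRγ library. Unique reads told the same, with 1545 and 1392 in control and 671 and 612 in ERRγ. By unique reads Ifit2-201 fell, with a log2 fold change of −1.13 ± 0.19 (SE, edgeR, adjusted p = 1.03e-05). All reads gave a nearly equal −1.14 ± 0.21, which did not pass (edgeR, adjusted p = 0.0516). Its unique-read call held in each of the 10 alternative fits of rows, with a largest adjusted p of 0.0300 without ERRγ replicate 2. No other of the 14 rows kept a call through all of them.

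Rsad2 and Cmpk2 are neighbours on chromosome 12 that point away from each other, 12.8 kb apart. Rsad2 (26442746 to 26456452, minus strand) encodes viperin, which turns CTP into a chain-terminating nucleotide, and Cmpk2 (26469204 to 26479837, plus strand) encodes a mitochondrial kinase of pyrimidine nucleotides. The 250 bases before the start of Rsad2-201 (chr12:26456453-26456702, minus strand, GRCm38.p6, from RefSeq) are shown because they hold the core letters of an ISRE, in capitals, 120 bases before the start.
Rsad2 promoter: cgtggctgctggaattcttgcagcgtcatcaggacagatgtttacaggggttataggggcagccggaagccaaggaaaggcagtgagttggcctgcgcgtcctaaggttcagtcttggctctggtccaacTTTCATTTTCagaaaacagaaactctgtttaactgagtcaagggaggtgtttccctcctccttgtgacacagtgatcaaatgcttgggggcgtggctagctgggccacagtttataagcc
Rsad2-201 stood at 369 and 348 RPKM in control and at 271 and 246 RPKM in ERRγ, a ratio of 0.722. Cmpk2-201 stood at 575 and 521 RPKM in control and at 415 and 377 RPKM in ERRγ, a ratio of 0.723. In both rows the groups were apart, and the ratios were almost equal.

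The kinds of read did not tell the same for this pair. Rsad2-201 fell in the all-read test (log2 fold change −0.47 ± 0.08, SE, edgeR, adjusted p = 0.0454), but 0.333% of its reads were unique, and these were 45 and 88 in control and 64 and 75 in ERRγ. Scaled to the library, in RPM (reads scaled to the size of the library without regard to length), that was 2.40 and 5.21 against 3.85 and 4.29, so the ERRγ libraries lay between the controls. The unique-read log2 fold change was 0.11 ± 0.32 (SE, edgeR, adjusted p = 0.746). It was −0.35 without control replicate 1 (edgeR, adjusted p = 0.235) and 0.76 without control replicate 2 (edgeR, adjusted p = 0.0332), so either control decided its direction. The all-read call was lost without any 1 of the libraries, as nearly all all-read calls were. The all-read log2 fold change was then −0.43 without control replicate 1 and −0.51 without control replicate 2. Without ERRγ replicate 1 it was −0.54, and without ERRγ replicate 2 it was −0.40. With TMM the all-read call was lost too, at a log2 fold change of −0.31 (edgeR, adjusted p = 0.0897). Cmpk2-201 had 26.3% unique reads, or 534 and 383 RPM in control and 360 and 310 RPM in ERRγ. By these it fell (−0.45 ± 0.16, SE, edgeR, adjusted p = 0.0213), and by all reads it did not pass (−0.47 ± 0.09, edgeR, adjusted p = 0.0518). Its unique-read call was lost without control replicate 1 (0.125), where the log2 fold change was −0.19, and without ERRγ replicate 1 (0.184) or 2 (0.399). With TMM it was lost too, at a log2 fold change of −0.11 (0.619).

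Mx1 and Mx2 encode dynamin-like GTPases that block virus replication, and many laboratory mouse strains carry defective alleles of both. They lie 72.4 kb apart on chromosome 16, Mx1 from 97447035 to 97462907 on the minus strand and Mx2 from 97535308 to 97560900 on the plus strand, and the annotation calls Mx2 a polymorphic pseudogene. Which alleles NIT-1 cells carry is not stated in the labels. Mx2-202 stood at 2362 and 2339 RPKM in control and at 2128 and 2126 RPKM in ERRγ, a ratio of 0.905, and none of its 85544 to 107356 reads per library was unique. The replicates differed by far less than the groups, yet the change was small and missed the threshold (log2 fold change −0.14 ± 0.06, SE, edgeR, adjusted p = 0.141).

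Mx1 had a major and a minor row. The protein-coding Mx1-202, with 9 exons, stood at 410 and 439 RPKM in control and at 371 and 381 RPKM in ERRγ, a ratio of 0.887. Mx1-205, with 11 exons and annotated as subject to nonsense-mediated decay, stood at 58.1 and 51.4 RPKM in control and at 37.9 and 35.2 RPKM in ERRγ, a ratio of 0.668. Its share of the summed Mx1 RPKM was 12.4% and 10.5% in control and 9.27% and 8.45% in ERRγ. Unique reads of Mx1-205 numbered 101, 55, 49 and 39, and by these it fell (log2 fold change −0.74 ± 0.31, SE, edgeR, adjusted p = 0.0399), while Mx1-202 did not pass (−0.27 ± 0.27, edgeR, adjusted p = 0.345). Whether the rows differed from each other was not tested. Mx1-205 was no longer called without control replicate 1 (0.336), where its log2 fold change was −0.33, and without ERRγ replicate 1 (0.223) or 2 (0.451). With TMM its log2 fold change was −0.40 (0.369).

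Gbp2 encodes a guanylate-binding protein, a GTPase that attacks the vacuoles of intracellular pathogens. It lies on chromosome 3 from 142620602 to 142638008, plus strand, and 30 bases around its ISRE letters (capitals; chr3:142620594-142620623, plus strand, from RefSeq), 59 bases before the RefSeq start and inside the first exon of Gbp2-201, are shown as its counterpart to the Rsad2 element.
Gbp2 ISRE: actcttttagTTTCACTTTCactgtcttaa
Gbp2-201 stood at 2234 and 2309 RPKM in control and at 2035 and 2005 RPKM in ERRγ, a ratio of 0.889. It was the most deeply counted row with unique reads, 88814 and 85826 in control and 73445 and 75100 in ERRγ. The groups were apart with both kinds of read, but the difference did not pass with all reads (log2 fold change −0.17 ± 0.06, SE, edgeR, adjusted p = 0.117) or with unique reads (−0.17 ± 0.10, edgeR, adjusted p = 0.110). With unique reads it did pass, lower, without control replicate 1 (0.00352) or 2 (0.0474). Mx2-202, Gbp2-201 and Mx1-202 had all-read log2 fold changes above that of the median tested row (−0.27), by 0.12, 0.10 and 0.09. TMM moved that median by 0.17 with all reads and by 0.35 with unique reads, which turned Mx2-202 (0.02, all reads), Gbp2-201 (0.17, unique reads) and Mx1-202 (0.08, unique reads) positive, so no direction can be given for these 3 rows.

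**Figure D2:**
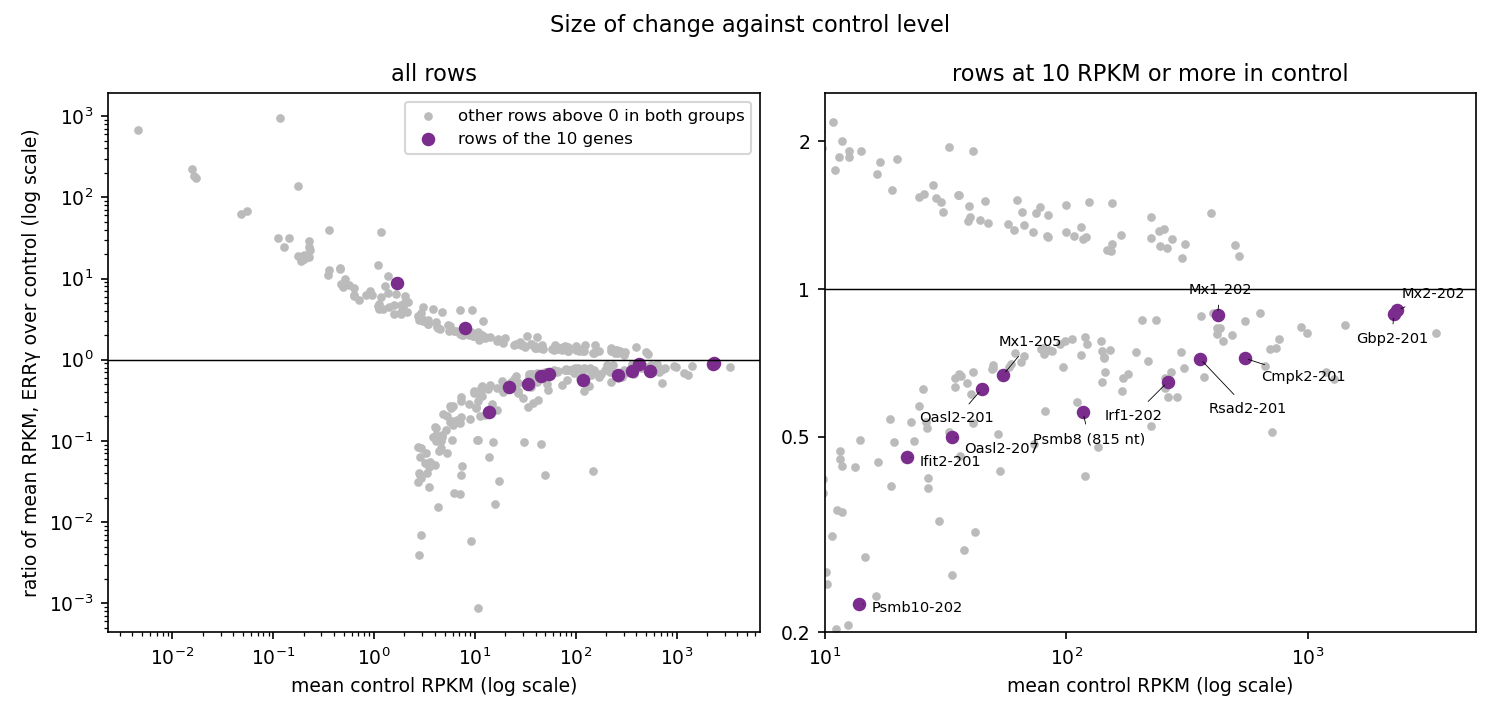
Ratio of mean RPKM, ERRγ over control, against mean control RPKM, both on log axes, for all rows above 0 in both groups (grey) and the rows of the 10 genes (purple); the right panel enlarges the rows at 10 RPKM or more. A gap without rows surrounds a ratio of 1 and widens towards low levels, and 12 of the 14 purple points lie below it.

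From the most to the least abundant row, the size of the ratio's distance from 1 grew as the level fell, as it did over the listed rows in general. Over the 14 rows the Spearman correlation of control RPKM with the absolute log2 ratio was −0.97, and over the 242 rows at 5 RPKM or more in control and above 0 in ERRγ it was −0.81; these are descriptions across rows of shared libraries. Over the 10 genes with rows added it was −0.42. Among these 242 rows the ratio nearest to 1 was 0.905, that of Mx2-202. Between 10 and 30 RPKM in control, where Ifit2-201 and Psmb10-202 lie, the closest ratios were 0.625 and 1.53 among 52 rows. Between 300 and 1000 RPKM, where Cmpk2-201, Mx1-202 and Rsad2-201 lie, they were 0.895 and 1.16 among 26 rows. At 1000 RPKM or more all 6 rows, Mx2-202 and Gbp2-201 among them, were below 1. The share of the relation that comes from how the rows were chosen was not tested.

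Oasl2 encodes a relative of the oligoadenylate synthetases, which sense double-stranded RNA. It lies on chromosome 5 from 114896936 to 114912234, plus strand, and had 3 rows that did not move together. The protein-coding Oasl2-201 stood at 49.9 and 39.6 RPKM in control and at 30.4 and 25.6 RPKM in ERRγ. The short protein-coding Oasl2-207 stood at 41.7 and 25.6 RPKM in control and at 18.6 and 15.1 RPKM in ERRγ. The retained-intron transcript Oasl2-204 went the other way, from 3.28 and 0.0714 RPKM in control to 14.8 and 14.4 RPKM in ERRγ, from 51, 1, 204 and 208 reads. Oasl2-204 thus made up 3.45% and 0.109% of the summed Oasl2 RPKM in control and 23.2% and 26.1% in ERRγ. In all reads none of the 3 rows passed (edgeR, adjusted p = 0.0655, 0.236 and 0.214). By its 237, 175, 130 and 113 unique reads Oasl2-201 fell (log2 fold change −0.69 ± 0.25, SE, edgeR, adjusted p = 0.0263). That call was lost without control replicate 1 (0.0732), without ERRγ replicate 1 (0.166) or 2 (0.377), and with TMM, where the log2 fold change was −0.34 (0.307).

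What sets Oasl2-204 apart from the other 2 rows is a tail of 253 bases (chr5:114900031-114900283, plus strand, GRCm38, from the GENCODE M21 transcript). The tail runs into an intron of Oasl2-201 and stops where Oasl2-204 ends. The name retained intron below is the annotated class of the transcript, not a statement that a whole intron is kept. This tail is shown in capitals after the last 30 exon bases before it, because reads from it would mark this transcript.
Oasl2-204 retained intron: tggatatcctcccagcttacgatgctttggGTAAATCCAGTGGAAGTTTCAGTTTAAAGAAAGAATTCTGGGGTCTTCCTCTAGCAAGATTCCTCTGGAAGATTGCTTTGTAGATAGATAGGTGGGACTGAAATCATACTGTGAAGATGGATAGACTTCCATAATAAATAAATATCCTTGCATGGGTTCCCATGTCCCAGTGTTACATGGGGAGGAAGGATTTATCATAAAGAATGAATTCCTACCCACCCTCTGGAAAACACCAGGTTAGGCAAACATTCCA
Of the 151-base windows of Oasl2-204, 37.1% occur in no other annotated transcript. Of its reads, however, 0.216% were unique, namely 0 and 0 in control and 0 and 1 in ERRγ. The higher level of Oasl2-204 therefore rested almost wholly on reads that were not placed uniquely. With the 3 rows added, Oasl2 stood at 94.9 and 65.3 RPKM in control and at 63.8 and 55.1 RPKM in ERRγ. Control replicate 2 then lay just above ERRγ replicate 1, and the gene did not pass with all reads (log2 fold change −0.56 ± 0.19, SE, edgeR, adjusted p = 0.101).

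The immunoproteasome subunits had few unique reads. Psmb8, which replaces the constitutive catalytic subunit Psmb5, lies in the MHC region on chromosome 17 from 34197721 to 34201454, plus strand. Its row stood at 138 and 97.3 RPKM in control and at 56.7 and 75.2 RPKM in ERRγ, with 5, 8, 2 and 4 unique reads, too few for the unique-read test. The groups did not overlap, but the spread within each was wide, and the row missed the threshold (log2 fold change −0.83 ± 0.27, SE, edgeR, adjusted p = 0.0893). The window before the RefSeq start of Psmb8 holds the letters of a GAS, in capitals, 97 bases before that start (chr17:34198088-34198117, plus strand, from RefSeq). All 250 bases of the window lie in annotated Psmb8 exon and after the gene start given above. Unlike the GAS of Irf1, this one is thus inside the annotated gene. It is shown as the other GAS close to a RefSeq start.
Psmb8 GAS: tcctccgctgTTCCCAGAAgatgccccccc

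Psmb10, which replaces the constitutive subunit Psmb7, lies on chromosome 8 from 105935735 to 105938444, minus strand, and its rows mirrored each other. Psmb10-202 stood at 19.7 and 8.19 RPKM in control and at 4.13 and 2.25 RPKM in ERRγ. Psmb10-204 stood at 3.44 and 12.5 RPKM in control and at 17.4 and 21.6 RPKM in ERRγ. Each row separated the groups, in opposite directions, and the controls differed widely from each other in both. Added, they stood at 23.1 and 20.7 RPKM in control and at 21.5 and 23.9 RPKM in ERRγ, so the groups overlapped and the ratio was 1.04 (log2 fold change from added reads 0.14 ± 0.48, SE, edgeR, adjusted p = 0.789). With that SE a sizeable change in either direction was not detectable. Neither row passed alone (edgeR, adjusted p = 0.169 for Psmb10-202 and 0.266 for Psmb10-204).

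Both Psmb10 rows are annotated as retained-intron transcripts and keep the same intron of 112 bases (chr8:105937382-105937493, minus strand). Psmb10-201, which lacks this intron, had no row. The added Psmb10 values thus cover only rows that keep an intron, and not the whole gene. Beside 12 bases at the start of Psmb10-204, the listed rows part at the 3′ end, where Psmb10-202 runs 36 bases into the next intron (chr8:105936660-105936695, minus strand, GRCm38). This tail is shown in capitals after the last 30 bases shared with Psmb10-204, followed by the shared intron, in capitals after 30 bases of exon.
Psmb10-202 tail: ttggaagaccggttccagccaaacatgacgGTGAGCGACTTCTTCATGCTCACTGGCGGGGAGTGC
Shared Psmb10 intron: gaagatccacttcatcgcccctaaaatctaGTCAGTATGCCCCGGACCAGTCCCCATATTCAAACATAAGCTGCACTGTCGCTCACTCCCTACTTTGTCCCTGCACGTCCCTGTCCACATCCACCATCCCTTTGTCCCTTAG
Every 151-base window of Psmb10-204 occurs in another Psmb10 transcript, and none of its 58 and 190 reads in control and 259 and 339 in ERRγ was unique. Of the windows of Psmb10-202, 5.64% occur nowhere else, and 18, 7, 4 and 2 of its reads were unique, 6.39% in all. The unique reads of Psmb10-202 were thus fewer in ERRγ, as its RPKM was. They were too few for the unique-read test.

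**Figure D3:**
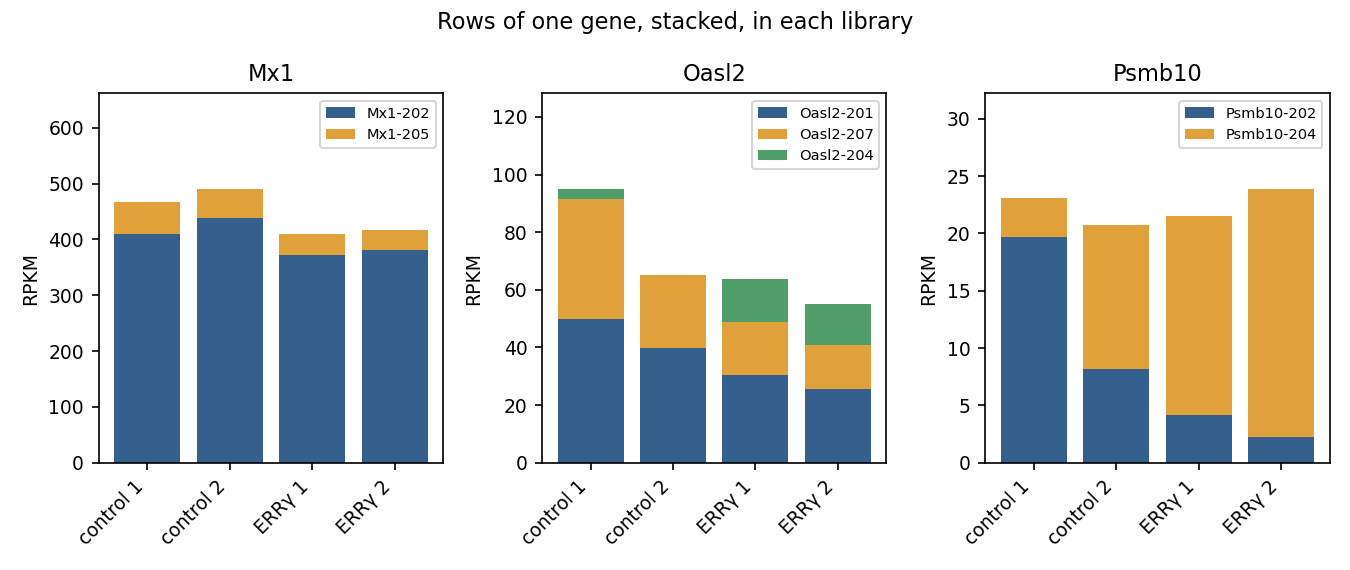
RPKM of the rows of Mx1, Oasl2 and Psmb10 stacked in each of the 4 libraries, on linear axes from 0. The Psmb10 stacks reach nearly the same height in all libraries while their parts change places, and Oasl2-204 is visible in control replicate 1 and in both ERRγ libraries.

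Rows of one gene moving to opposite sides of the controls were frequent in these tables. Of the 30 genes with several rows, 11 had at least 1 row below and 1 row above both controls (36.7%), Oasl2 and Psmb10 among them. In 8 of these 11, Psmb10 included, the added rows of the gene overlapped between the groups, while added Oasl2 lay below both controls.

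Sequence that the rows share with other transcripts was shared within their own genes. For the 13 rows with a matching transcript, 0% of the 151-base windows occurred in a transcript of another gene. With windows of 50 bases, Mx2-202 shared 6.70% with Mx1, Mx1-202 shared 4.91% and Mx1-205 5.80% with Mx2, Irf1-202 shared 2.49% with Gm17334, and Gbp2-201 shared 2.07% with Gbp2b. Exact windows do not cover reads placed with mismatches. The low unique shares of Mx2-202 (0%), Irf1-202 (0.0154%) and Rsad2-201 (0.333%) thus stood beside 0.132%, 1.71% and 0.771% of windows found in no other transcript. Oasl2-207 was, with Oasl2-204, the row where the 2 shares lay farthest apart, with 24.9% of windows and 0.0885% of reads.

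**Figure D4:**
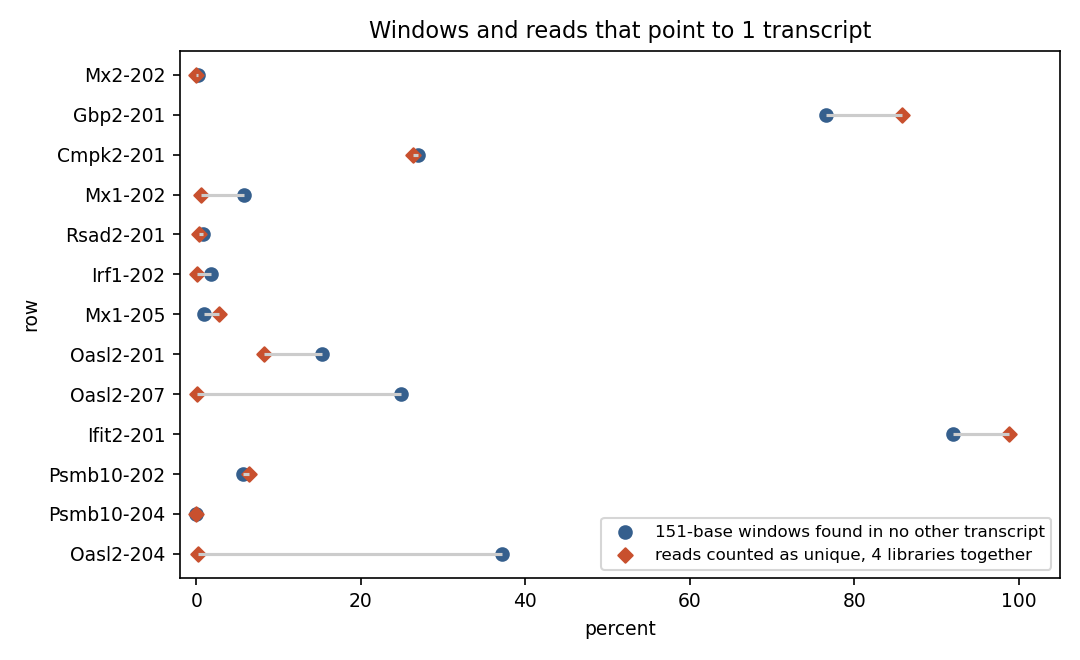
For the 13 rows with a matching transcript, the percentage of 151-base windows found in no other annotated transcript (blue circles) and the percentage of reads counted as unique over the 4 libraries (red diamonds). The shares lie close together for Cmpk2-201 and Psmb10-202 and far apart for Oasl2-204 and Oasl2-207.

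Counted over the 14 rows, the all-read test called 2 lower (Irf1-202 and Rsad2-201) and 0 higher, where 5.60% of the 375 tested rows were called lower and 1.07% higher. An unadjusted edgeR p under 0.05 was found for 8 of the 14 rows and for 154 of the 375. The unique-read test had enough reads for 7 of the rows and called 4 lower (Ifit2-201, Cmpk2-201, Oasl2-201 and Mx1-205) and 0 higher, where 51.2% of its 121 rows were called lower and 9.09% higher, so that share is near the background. No row was called by both tests. The common dispersion, a spread that edgeR pools over all tested rows, was 0.534 with all reads and 0.0138 with unique reads. The 2 tests can thus differ for a row such as Ifit2-201, where nearly all reads were unique. How much of the difference between the calls comes from this spread was not tested. With the rows of a gene added, the all-read test called 4 of the 10 genes lower, Irf1, Ifit2, Rsad2 and Cmpk2, where 8.65% of 347 genes were lower and 1.73% higher. Each of these 4 genes has a single row, so their reads were the same as in the test of rows. What differed for Ifit2 and Cmpk2 was the tested set, over which the spread is pooled and p adjusted. Once TMM replaced the library sizes, edgeR called 0 of the 14 rows with all reads (0.268% of 373 rows lower and 0.0% higher). An unadjusted p under 0.05 was then found for 6 of the 14 rows and for 141 of the 373. Of the 7 rows with enough unique reads, TMM left only Ifit2-201 called (10.0% of 120 rows lower and 24.2% higher). The DESeq2 Wald test on all reads called 7 of the 14 lower (22.4% of 406 rows lower and 26.6% higher), and edgeR at a mean count of at least 50 called 4 (11.0% of 328 rows lower and 1.83% higher). These p-values come from a selected set of rows, over which edgeR also pools the spread.

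**Figure D5:**
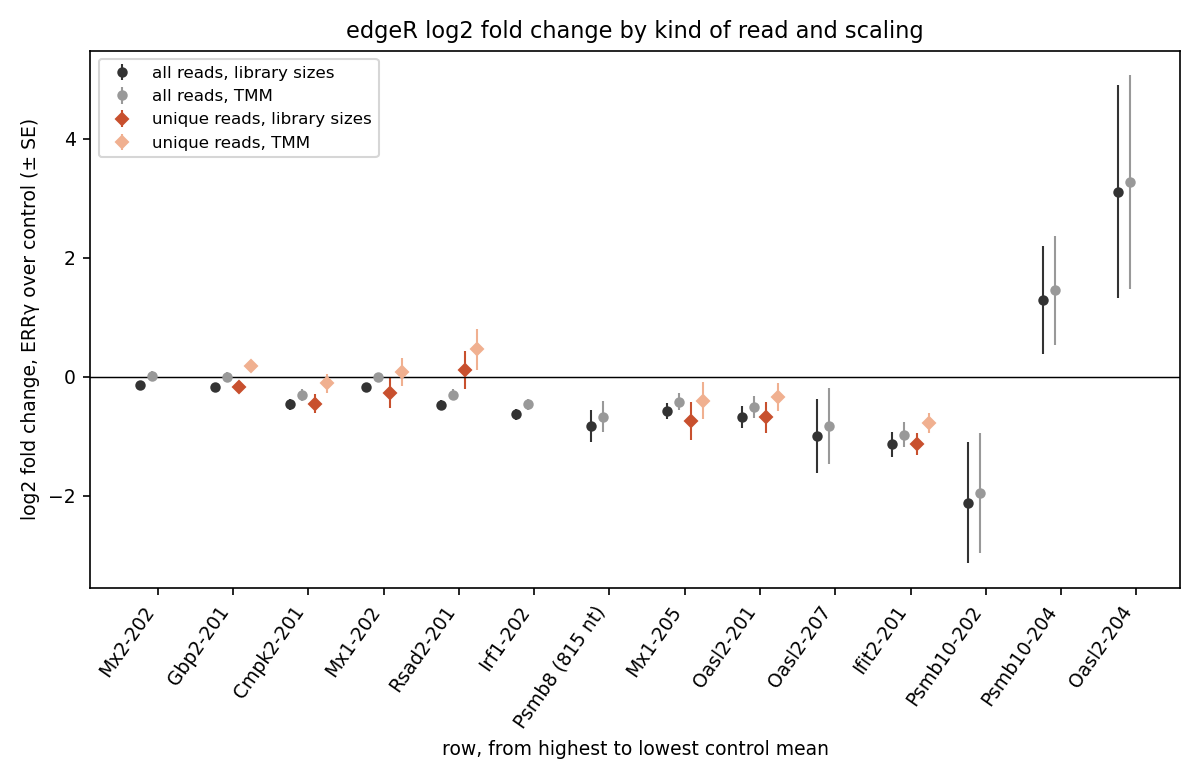
edgeR log2 fold change of ERRγ over control with its SE for the 14 rows, from all reads (circles) and unique reads (diamonds), with recovered library sizes (black and red) and with TMM (grey and light orange); rows without diamonds had too few unique reads. Ifit2-201 is negative in all 4, Rsad2-201 is negative with all reads and positive with unique reads, and the wide bars of the Psmb10 and Oasl2-204 rows span more than the other changes.

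Other interferon-induced genes with a row lay lower as well. Their list, like the 10 genes, was chosen with earlier results of these data known, so this is not an independent check. Few listed rows overlap between the groups, so the side on which a row lies says little. Of the 102 interferon-induced genes on that list, 15 had rows, 7 of them outside the 10 genes. Their 8 rows all lay below both controls in RPKM, as 45.6% of all rows did, with a median ratio of 0.678 against 0.748 over all rows. All 8 also did so after TMM scaling (41.9% of all rows), and in unique reads 6 of 7 did and 1 overlapped (39.5% of all rows). Ifi44l-201, whose reads were all unique, averaged 106 ± 7.99 RPKM in control against 83.5 ± 3.01 in ERRγ (SD, n = 2) and did not pass either test (edgeR, adjusted p = 0.123 with all reads and 0.0694 with unique reads). Samd9l-201, with 99.1% unique reads, went from 218 ± 15.5 to 156 ± 10.5 RPKM (SD, n = 2), and by unique reads, where 51.2% of all tested rows were called lower, it fell (−0.48 ± 0.13 on the log2 scale, SE, edgeR, adjusted p = 0.00331). Ifit3b-201, a relative of Ifit2, stood at 140 ± 14.1 and 110 ± 7.07 RPKM, and Gbp5-201, a relative of Gbp2, at 39.0 ± 6.01 and 25.1 ± 3.68 RPKM (SD, n = 2). The chemokine rows Cxcl10-201 and Ccl5-201 had ratios of 0.697 and 0.659. By unique reads Ccl5-201 (edgeR, adjusted p = 0.0125), Cxcl10-201 (0.0158) and Gbp5-201 (0.0443) fell, and Ifit3b-201 did not pass (0.0642). With TMM none of these unique-read calls was left: the log2 fold changes were −0.14 for Samd9l-201 (edgeR, adjusted p = 0.415), −0.26 for Ccl5-201 (0.341), −0.11 for Cxcl10-201 (0.544) and −0.27 for Gbp5-201 (0.450). Ifi44l-201 and Ifit3b-201 then came to 0.01 each, on the other side of 0. The 4 calls were also lost without either ERRγ library, and that of Gbp5-201 without control replicate 2 (0.247). Cxcl10-203, a retained-intron row, stood at 2.48 and 8.95 RPKM in control and at 1.93 and 1.17 RPKM in ERRγ. Uba7-201, for the enzyme that activates the ubiquitin-like modifier Isg15, stood at 15.8 and 5.69 RPKM in control and at 0.0188 and 0 RPKM in ERRγ, with no unique read. In the all-read test, where 5.60% of all tested rows were called lower, Cxcl10-201 and Uba7-201 fell (edgeR, adjusted p = 0.0454 for each). Both calls were lost with TMM (edgeR, adjusted p = 0.0596 for each) and without a filter on low counts (0.0597 for each). They were also lost without any 1 of the libraries, as nearly all all-read calls were.

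The signalling and constitutive proteasome genes were hardly represented. Of 44 genes of interferon signalling, from ligands and receptors to transcription factors, only Irf1 had a row. Of 28 genes of antigen processing, 2 had rows beside Psmb8 and Psmb10. Tapbp-202 stood at 8.29 and 3.01 RPKM in control and at 0 and 1.94 RPKM in ERRγ, and Erap1-203 at 6.47 RPKM in control replicate 1 and 0 elsewhere. Of 42 constitutive proteasome genes, 3 had rows. Psmb4-202, a retained-intron transcript, stood at 271 and 276 RPKM in control and at 303 and 388 RPKM in ERRγ, Psmc3-203 at 1.80 and 0 against 6.66 and 5.81 RPKM, and Psmc6-208 at 8.78 RPKM in control replicate 1 and 0 elsewhere. Neither Psmb4-202 nor Psmc3-203 passed the all-read test (edgeR, adjusted p = 0.142 and 0.297). The DESeq2 Wald test on all reads, which called 26.6% of 406 rows higher, called Psmb4-202 higher (log2 fold change 0.54, adjusted p = 0.00613). It did not call Psmc3-203 (adjusted p = 0.176).

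Rows of unrelated genes matched the pattern closely. The lower middle of the 14 rows by ratio was Mx1-205, and the rows outside the 10 genes with the nearest pattern over the 4 libraries were Actn1-201 (ratio 0.673), the actin pseudogene row Actg-ps1-201 (0.678) and the predicted gene row Gm12715-201 (0.662), at distances of 0.0399, 0.0449 and 0.0716 on the log2 scale. Outside the 10 genes, the rows nearest to Mx2-202 in control level were mt-Co1-201 (ratio 0.844), Actb-201 (0.813) and Actg1-204 (0.656). Each was lower in ratio than Mx2-202. None was close to it in level, at 1607 and 1247 RPKM (mt-Co1-201), 3411 and 3381 RPKM (Actb-201) and 1212 and 1367 RPKM (Actg1-204) in control.

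Promoter letters differed between the members. Of the 10 genes, 8 had a promoter in the RefSeq table, with 10 windows of 250 bases before a start. The ISRE core, GAAA followed after any 2 bases by GAAA and searched on both strands like the others, was found for 2 genes (Gbp2 and Rsad2) and in 2.98% of all 32851 windows of that length. The GAS letters TTCNNNGAA were found for 3 genes (Irf1, Psmb8, there inside an annotated exon, and, 241 bases before its start, Ifit2) and in 7.02% of all windows. The half-site AAGGTCA, on which ERR receptors bind, was found for Psmb10, 42 bases before its start and inside an annotated exon, and in 4.08% of all windows. No gene held more than 1 of the 3 kinds. A match describes letters and not a bound site.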

How the data were processed

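RNA-seq was analysed from 4 libraries of transfected NIT-1 cells, 2 control and 2 ERRγ, sequenced as paired reads of 151 bases per the labels' protocols. The authors deposited 1 table per library; per the file headers, each row holds a whole-number count of all gene reads, a count of unique gene reads, and an RPKM value. Build mm8 is named in the submitters' processing notes, and the tool that aligned and counted the reads is not given in the sources used here. Row lengths, recovered from count and RPKM, matched exactly 1 transcript of the GENCODE M21 annotation (GRCm38) for 397 of the 406 named rows, and names, positions and transcript sequences come from it. Which rule selected the rows in the tables is not stated. The library sizes were recovered in the same way, since each table's listed reads make up 6.26% to 7.62% of them. The 3 rows without a gene name, 0.0121% to 0.0332% of the reads, were left out.

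The counts were tested with edgeR 4.0.16 (quasi-likelihood, recovered library sizes, edgeR's filter on low counts, Benjamini-Hochberg adjustment over all tested rows, threshold 0.05), in R 4.3.3, once with all reads and once with unique reads. Alternatives were TMM and DESeq2 size factors, DESeq2 1.42.0, limma 3.58.1 on log2(RPKM + 1) and log2(RPKM + 0.1), other filters, added rows of a gene, the replicate number as a block, and leaving out each library. A row or gene is below or above the controls when both ERRγ libraries lie on that side of both; a permutation of 2 against 2 values cannot go below p = 0.333, so no such test was run. RefSeq promoter windows are of build GRCm38.p6. All rows of the 10 genes, listed rows of the gene lists, both Esrrg rows, the 3 rows nearest in pattern to the member row of lower middle ratio and the 3 nearest in control level to the most abundant one are named. The members and lists were chosen with earlier results of these data known. Read duplicates and counting error beyond the library spread were not modelled; 3 reads on a row of 1 kb give 0.160 to 0.181 RPKM.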

Additional observations from a re-analysis of the deposited data

How the results depend on the processing

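With all reads, the 25 called rows became 1 with TMM, 7 with DESeq2 size factors, 199 with the DESeq2 Wald test, 42 with limma on log2(RPKM + 0.1), 42 at a mean count of at least 50, 1 with no filter on low counts, 1 with the replicate block and 1 to 2 without a library. The 2 called rows of the 10 genes became 7 with the Wald test, 4 at a mean count of at least 50, 4 genes with rows added, and 0 with TMM, DESeq2 size factors, each limma setting, no filter, the replicate block and each left-out library (0 to 0). With unique reads, the 73 called rows became 41 with TMM (29 higher, 12 lower, against 11 and 62), 40 with DESeq2 size factors, 29 with the Wald test, 23 without a filter, 71 with the block and 10 to 98 without a library; of the 10 genes' rows, 4 became 1 with TMM, DESeq2 size factors, the Wald test or no filter, 5 with the block (Gbp2-201 added, edgeR, adjusted p = 0.0329) and 1 to 7 without a library. The labels tie the numbers of the replicates to nothing shared, so the main fits did not pair the libraries. Deviations of same-numbered libraries correlated at −0.0175 (RPKM, 406 rows) and 0.151 (unique reads, 119 rows). With only 2 pairs this cannot show whether the libraries were paired. The median ratio of the 14 rows, 0.695, was 0.778 after TMM and 0.622 in unique reads, and that of the 10 genes, 0.733, was 0.821 and 0.645. The unique-read medians leave out rows and genes without a unique read in control. The rows that lay above both controls in RPKM are among those left out. The unique-read median of the genes, 0.645, is the ratio of Irf1, which had too few unique reads to test. All-read log2 fold changes turned positive for Gbp2-201 (0.0339 by the Wald test, 0.0338 with DESeq2 size factors), Mx1-202 (0.0309, 0.0308) and Mx2-202 (0.0588, 0.0588, and 0.0185 with TMM). Unique-read ones did so for Gbp2-201 (0.140, 0.164, 0.175) and Mx1-202 (0.0433, 0.0677, 0.0777; TMM last), and Rsad2-201 went from 0.11 to −0.35 without control replicate 1 and to 0.76 without control replicate 2. The causes were not tested. With a library left out, the lone library of its group was assumed to vary like the others. No row had a mean RPKM under 1, so limma without a filter tested the same rows. The tables hold a selection of rows, edgeR pools its spread over them, and unique reads were too few to test Irf1-202, Mx2-202, Psmb8 or either Psmb10 row.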
